A study of Mus musculus with 60 samples.

Results

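Cytochrome P450 genes encode membrane-bound heme enzymes that put an oxygen atom into drugs, plant compounds, fatty acids, sterols, steroid hormones and vitamins. Most take their electrons from the reductase Por in the endoplasmic reticulum, and families 1 to 4 do most of the oxidation of foreign compounds and fatty acids, while the higher-numbered families mostly make or break down sterols, bile acids, steroids, retinoic acid and vitamin D. In the gut lining, P450 enzymes of absorptive cells are a first site of metabolism of what is eaten. The family was taken as every protein-coding gene of the deposited table whose symbol is Cyp followed by a digit, which gave 100 genes of 55357 genes in all (21833 of them protein coding). Of the 100 genes, 67 had at least 10 counts in at least 4 of the 60 libraries, 22 had fewer counts (at most 111 over all 60 libraries) and 11 had none.

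Mice 8 weeks old with an Lgr5-2A-eGFP allele gave the gut epithelial cells whose polyA RNA was sequenced. In this allele GFP reports Lgr5, a gene of intestinal stem cells; neither strain, sex nor another allele is given. The small intestine was cut into proximal, middle and distal parts of equal length and the colon into proximal and distal parts, and cells of each part were sorted as GFP-high, GFP-intermediate or GFP-negative, with 4 libraries in each of the 15 groups. Every group carries the same allele, and the labels name no treatment. Nothing in the labels says whether the libraries of a group came from different mice, so a p-value here measures only the spread between these libraries.

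Total counts ran from 55411864 to 113917959 per library (median 81230235). The stem cell markers (Lgr5, Smoc2, Ascl2, Axin2 and Olfm4) were all raised in the GFP-high fraction in 4 of the 5 gut parts, and 4 of 5 were in the distal colon. Markers of other cell types moved with the sort. In the 3 small intestinal parts all 8 enterocyte markers were lower in GFP-high cells and all 5 Paneth cell markers were higher, and in all 5 parts all 9 leukocyte markers were lower, with summed levels of 119 to 1911 CPM (counts scaled to a common library total) in GFP-negative libraries against 6.50 to 35.2 in GFP-high libraries. Hepatocyte markers stayed at 14.7 CPM or less in sum. Many of the P450 genes below are best known from liver, and the part of liver RNA in their levels was not tested. In bulk RNA of this kind, fewer cells of a type and less RNA per cell cannot be told apart.

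The promoters of 6 P450 genes whose regional or sort-dependent levels are described below are shown here as RefSeq gives them in GRCm38.p6, from 250 bases before to 50 bases after the start site, each on its own strand. Cyp2c55, Cyp2c65, Cyp2c66 and Cyp2c68 lie in 1 gene cluster on chromosome 19, Cyp3a11 is on chromosome 5 and Cyp2e1 on chromosome 7. Capitals mark the word CAAAGTCCA, a core known from binding sites of the nuclear receptor HNF4, or a word that differs from it at 1 position, searched on both strands.
Cyp2c55, chr19:39006769-39007068, plus strand: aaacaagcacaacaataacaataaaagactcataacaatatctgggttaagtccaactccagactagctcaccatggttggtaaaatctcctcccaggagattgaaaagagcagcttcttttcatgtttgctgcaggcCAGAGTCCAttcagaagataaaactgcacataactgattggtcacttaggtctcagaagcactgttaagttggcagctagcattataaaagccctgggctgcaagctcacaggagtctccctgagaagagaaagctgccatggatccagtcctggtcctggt
Cyp2c65, chr19:39060756-39061055, plus strand: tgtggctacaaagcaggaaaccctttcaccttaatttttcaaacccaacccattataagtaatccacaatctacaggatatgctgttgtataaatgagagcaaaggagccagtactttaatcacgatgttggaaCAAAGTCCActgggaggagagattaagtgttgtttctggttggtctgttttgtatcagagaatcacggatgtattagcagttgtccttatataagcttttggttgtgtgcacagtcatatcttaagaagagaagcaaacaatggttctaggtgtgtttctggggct
Cyp2c66, chr19:39113648-39113947, plus strand: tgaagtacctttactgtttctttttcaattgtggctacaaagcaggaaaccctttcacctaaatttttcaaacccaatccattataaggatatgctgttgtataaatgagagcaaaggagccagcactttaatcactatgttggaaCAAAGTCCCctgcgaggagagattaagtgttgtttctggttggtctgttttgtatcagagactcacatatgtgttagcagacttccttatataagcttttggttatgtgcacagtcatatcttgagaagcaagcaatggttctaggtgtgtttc
Cyp2c68, chr19:39741052-39741351, minus strand: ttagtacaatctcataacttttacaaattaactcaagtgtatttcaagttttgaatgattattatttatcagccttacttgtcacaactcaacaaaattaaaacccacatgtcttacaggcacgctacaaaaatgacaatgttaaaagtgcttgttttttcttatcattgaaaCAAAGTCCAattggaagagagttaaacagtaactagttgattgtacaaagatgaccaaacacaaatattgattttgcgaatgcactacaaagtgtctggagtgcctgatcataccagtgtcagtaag
Cyp3a11, chr5:145879805-145880104, minus strand: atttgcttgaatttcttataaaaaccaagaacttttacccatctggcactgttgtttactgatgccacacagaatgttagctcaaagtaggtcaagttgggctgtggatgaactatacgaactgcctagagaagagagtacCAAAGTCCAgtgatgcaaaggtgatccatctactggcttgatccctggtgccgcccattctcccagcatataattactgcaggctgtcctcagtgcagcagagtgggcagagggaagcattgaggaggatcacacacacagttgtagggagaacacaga
Cyp2e1, chr7:140763569-140763868, plus strand: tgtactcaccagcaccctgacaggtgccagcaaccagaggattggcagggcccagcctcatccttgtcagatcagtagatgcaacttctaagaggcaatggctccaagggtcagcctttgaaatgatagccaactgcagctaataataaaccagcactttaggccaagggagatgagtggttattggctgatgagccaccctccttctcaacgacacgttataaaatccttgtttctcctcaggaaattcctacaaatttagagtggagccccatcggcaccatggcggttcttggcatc

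The promoters of Cyp2c65 and Cyp2c66 share a run of 48 bases, and no other pair among the 6 shares more than 11. Cyp2c65, Cyp2c68 and Cyp3a11 hold the exact word, starting 116, 77 and 109 bases before the start site. Counted from 1 at the word's 5′ end, the marked word of Cyp2c66 carries A9C and that of Cyp2c55 carries A3G. Over the whole table, 150 of 27025 genes (0.555%) held the exact word in a window of this length, against 11 of the 77 P450 genes with a promoter there (14.3%) and 7 of the 55 of these with enough counts (12.7%). With 1 mismatch allowed the shares were 9.64%, 39% and 30.9%. Many of these genes are neighbouring copies of one another, so they are not independent cases, and a match in a window is a description of letters, not of binding.

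Where the P450 transcripts were. The family took 0.0523% to 0.534% of a library's counts. Measured per length, as CPM per kilobase of the deposited gene length, its summed level was 1787 ± 622 (SD, n = 4) in GFP-negative cells of the proximal small intestine followed by 1593 ± 163 in the middle part, 1021 ± 53.3 in the distal part, 1175 ± 30.7 in the proximal colon and 356 ± 48.9 in the distal colon. In GFP-high cells the corresponding sums were 269 ± 37.0, 278 ± 17.5, 190.4 ± 19.9, 520 ± 162 and 222 ± 55.6. The 4 libraries of the GFP-negative proximal small intestine were widely spread, from 1238 to 2581. Summed over the family, no GFP-high library reached the lowest GFP-negative library of the same part.

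The leading member differed along the gut. Cyp4f14, an enzyme that oxidises leukotriene B4 and fatty acids, held the largest share of the per-length sum in all 9 small intestinal groups, from 10.8% ± 0.717 in proximal GFP-high cells to 38.0% ± 2.89 in distal GFP-negative cells. Cyp2c55, which oxidises arachidonic and linoleic acid, held 50.4% ± 7.23 of the sum in proximal colon GFP-high cells and 66.4% ± 2.08 in GFP-negative cells. In the distal colon the first place went to Cyp51, the sterol demethylase of cholesterol synthesis, in GFP-high cells (22.4% ± 6.30) and GFP-negative cells (17.4% ± 2.89), and to Cyp2c55 in GFP-intermediate cells (16.8% ± 1.82). In distal colon GFP-negative cells the SD spans the difference between Cyp51 and Cyp2c55 (15.7%).

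**Figure D1:**
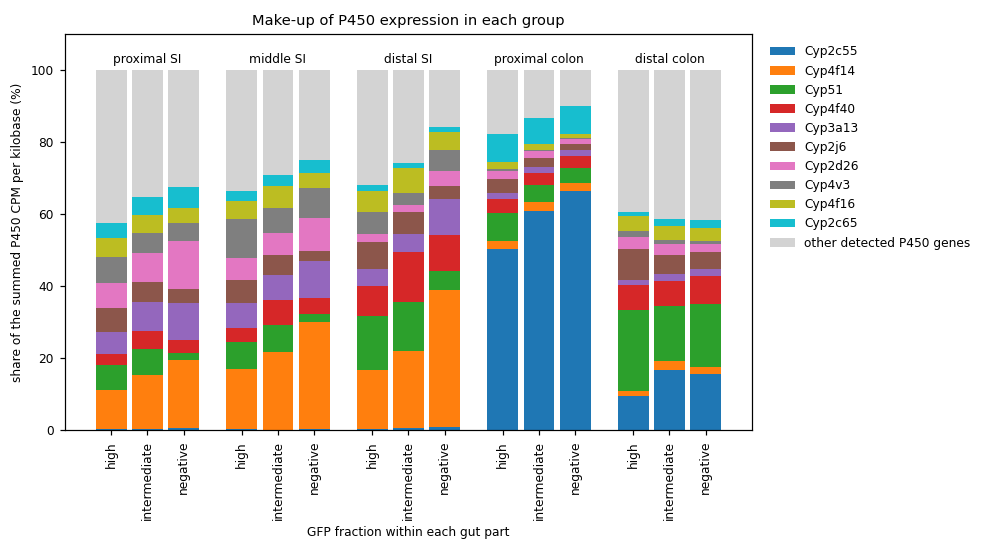
Share of the summed P450 level (CPM per kilobase, in percent, mean of 4 libraries) held by the 10 members with the largest mean share, for the 3 GFP fractions of each gut part (SI, small intestine). Cyp4f14 is the largest share throughout the small intestine, Cyp2c55 fills 50.4% to 66.4% of the bar in the proximal colon, and no member exceeds 22.4% in the distal colon.

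Of the 67 genes, 50 reached a mean of 1 CPM in at least 1 group, 36 reached 5 CPM, 25 reached 20 CPM and 14 reached 100 CPM. The highest group mean was in a GFP-negative group for 48 genes, in a GFP-high group for 12 and in a GFP-intermediate group for 7, and for 25 genes it was in GFP-negative cells of the proximal small intestine. These counts include the genes that never reached 1 CPM. The shares over all genes were not counted, so they have no comparison. Several single members were hardly measured. Cyp7a1, which starts classical bile acid synthesis, had no count in any library, nor had the steroid enzymes Cyp11b1 and Cyp19a1, and Cyp8b1, Cyp21a1, Cyp24a1, Cyp1a2 and Cyp1b1 did not reach 10 counts in 4 libraries. The 3 genes that clear retinoic acid (Cyp26a1, Cyp26b1 and Cyp26c1) reached group means of at most 0.519 CPM.

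**Figure D2:**
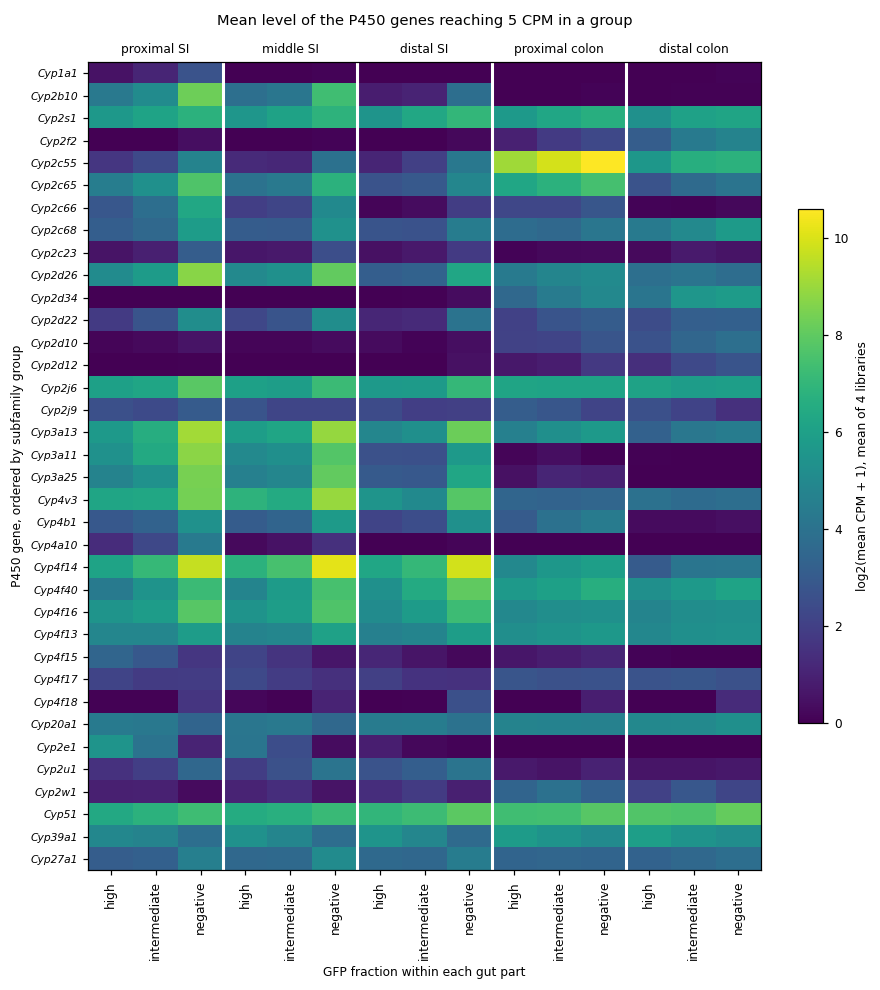
Mean level of the 36 P450 genes that reached 5 CPM in at least 1 group, as log2(mean CPM + 1) on the colour scale, for the 3 GFP fractions of each gut part (SI, small intestine). Rows follow the subfamilies; most small intestinal rows are brightest in the GFP-negative column, and Cyp2c55 is bright only in the colon.

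GFP-high against GFP-negative cells asks which P450 genes differ between cells with much Lgr5 reporter and cells without it. In the proximal small intestine 34 of the 66 tested genes were lower in GFP-high cells and 7 were higher, where 24.6% of all 23360 tested genes were called lower and 22.5% higher (edgeR, adjusted p below 0.05). In the middle part 28 were lower (all genes, 25.6%) and 9 higher (22.7%), and in the distal part 30 were lower (26.2%) and 8 higher (25.7%). In the colon fewer were called: 13 lower (14%) and 4 higher (11.3%) in the proximal part, and 10 lower (13.9%) and 3 higher (11.2%) in the distal part. The median log2 difference over the 66 genes was -2.27, -1.67, -1.54, -0.75 and -0.46 in the 5 parts from proximal small intestine to distal colon, against medians of -0.04 to 0 over all genes. Without members at or below 3 counts per library on both sides, and with members at 0 on one side set to the bound that 3 counts allow, these medians were -2.39, -2.07, -1.67, -0.82 and -0.53. Without the 15 libraries numbered 1, the counts in the proximal colon were 4 lower and 2 higher, and 6 lower in the distal colon. In the distal small intestine 5 were then higher. Enterocyte markers moved the same way: in the proximal part their sum was 1427 to 2938 CPM in GFP-high and 17612 to 33453 CPM in GFP-negative libraries, and in the proximal and distal colon 4 and 2 of the 8 were lower. Their part in the P450 differences was not tested.

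By subfamily, the lower calls in the 3 small intestinal parts, from proximal to distal, covered 7, 6 and 6 of the 11 tested CYP2C genes, 4, 4 and 4 of 5 CYP3A genes and 6, 5 and 5 of 9 CYP4F genes. Over all genes 24.6%, 25.6% and 26.2% were called lower. Of the CYP4F genes, Cyp4f15 was higher in all 3 parts, Cyp4f39 in the proximal part and Cyp4f17 in the middle and distal parts. No CYP2C or CYP3A gene was higher. Together 26 genes were lower in all 3 small intestinal parts and 4 were higher in all 3 (Cyp20a1, Cyp2e1, Cyp39a1 and Cyp4f15). Lower in all 5 gut parts were Cyp2c65, Cyp2s1, Cyp3a13, Cyp4f14, Cyp4f18 and Cyp4f40, and Cyp39a1 was the one gene higher in all 5. The shares of all tested genes called in all 3 or in all 5 parts were not counted, so these counts have no comparison. Without the libraries numbered 1, the proximal colon calls of Cyp2c65, Cyp3a13, Cyp4f14 and Cyp39a1 and the distal colon calls of Cyp3a13 and Cyp39a1 were lost. Among the 26, the Cyp2c55 calls in the middle and distal small intestine were lost without the GFP-negative library numbered 4 of that part (log2 differences of -2.26 and -0.90, edgeR adjusted p = 0.0609 and 0.4445). The distal call of Cyp20a1 was lost under 5 of the 7 alternative analyses, with edgeR adjusted p of 0.0523 to 0.151 and 0.0662 by DESeq2. The comparisons in different gut parts share no library, but they share the sort. The GFP-intermediate mean lay between the other two means for 38 of the 41 called genes in the proximal small intestine, 29 of 37 in the middle part, 28 of 38 in the distal part, 16 of 17 in the proximal colon and 13 of 13 in the distal colon. These genes were selected by their GFP-high against GFP-negative call, which favours a mean in between. The share over all called genes was not counted.

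**Figure D3:**
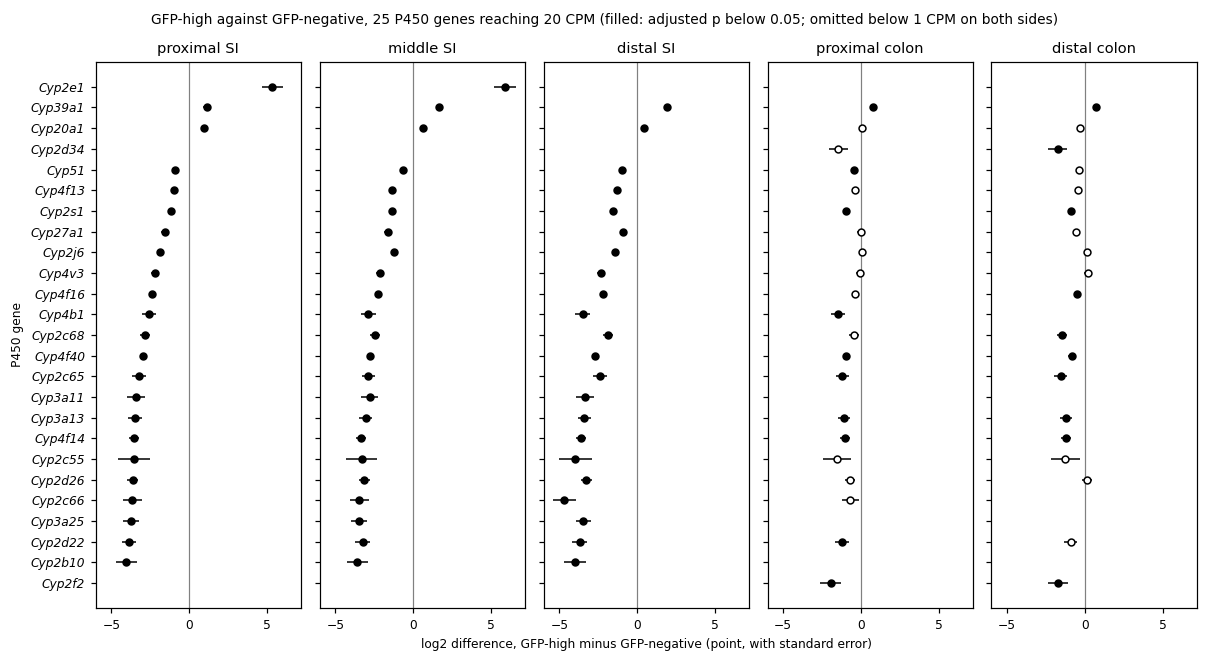
Fitted log2 difference, GFP-high minus GFP-negative, with its standard error, for the 25 P450 genes that reach 20 CPM in a group, in each of the 5 gut parts (SI, small intestine; filled points have an edgeR adjusted p below 0.05; a gene under 1 CPM on both sides has no point). Most points lie left of 0 in the small intestine and closer to 0 in the colon, and Cyp2e1 and Cyp39a1 lie to the right.

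Among the fatty acid oxidisers, Cyp4f14 had 54.4, 69.1, 80.1 and 78.4 CPM in the 4 proximal GFP-high libraries and 590.2, 1312, 548 and 834 CPM in the GFP-negative ones. The groups are far apart, although the GFP-negative libraries also differ widely among themselves. The log2 differences were -3.54 ± 0.34, -3.35 ± 0.33 and -3.62 ± 0.34 (SE) in the proximal, middle and distal small intestine (edgeR adjusted p = 9.78e-13, 3.94e-12 and 4.63e-13). In the distal colon, where it stood at 16.9 ± 4.31 CPM (SD, n = 4) in GFP-negative cells, the difference was -1.23 ± 0.31 (edgeR adjusted p = 0.00243). Cyp4f40, of the same subfamily, had 47.8, 31.4, 40.9 and 37.2 CPM in distal small intestinal GFP-high libraries against 275, 231, 263 and 264 CPM in GFP-negative ones. It was lower, with log2 differences of -2.95 ± 0.22, -2.77 ± 0.22 and -2.72 ± 0.22 in the small intestinal parts, and -0.94 ± 0.20 and -0.86 ± 0.20 in the proximal and distal colon (edgeR adjusted p = 0.000371 and 0.00112). Cyp4f16 was lower, with log2 differences of -2.42 ± 0.19, -2.26 ± 0.19 and -2.17 ± 0.19 in the same order of small intestinal parts, and Cyp4v3, a fatty acid hydroxylase tied to a human retinal disease, with -2.18 ± 0.26, -2.14 ± 0.26 and -2.34 ± 0.26. Cyp4b1 was lower, with log2 differences of -2.61 ± 0.46, -2.88 ± 0.46 and -3.50 ± 0.48.

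The CYP3A enzymes are the main drug oxidisers of the gut. Cyp3a11 had 29.7, 33.6, 42.4 and 57.5 CPM in proximal GFP-high libraries and 376, 783, 155 and 419 CPM in GFP-negative ones. Every GFP-high library lay below the GFP-negative ones, which were widely spread. Its log2 differences were -3.41 ± 0.56, -2.80 ± 0.55 and -3.35 ± 0.57 from proximal to distal small intestine (edgeR adjusted p = 1.57e-06, 2.89e-05 and 2.09e-06), the last falling to -2.75 without the GFP-negative library numbered 4. Cyp3a13 was lower, with log2 differences of -3.47 ± 0.43, -3.04 ± 0.43 and -3.40 ± 0.43, and Cyp3a25 with -3.74 ± 0.51, -3.47 ± 0.50 and -3.45 ± 0.51. In the colon Cyp3a11 and Cyp3a25 averaged 1.12 CPM or less in all 6 groups, whereas Cyp3a13 had 50.7 ± 10.8 CPM in proximal colon GFP-negative cells.

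Several CYP2 enzymes showed the same direction. Cyp2b10, the classical target of the receptor CAR, had 8.71, 11.5, 24.7 and 28.9 CPM in proximal GFP-high libraries and 158, 423, 188 and 453 CPM in GFP-negative ones, and was lower, with log2 differences of -4.05 ± 0.66, -3.58 ± 0.65 and -3.99 ± 0.70 from proximal to distal. Cyp2d26 was lower, with log2 differences of -3.62 ± 0.35, -3.13 ± 0.35 and -3.27 ± 0.35, with means of 33.8 against 416 CPM in the proximal part. Of the CYP2C genes whose promoters are printed above, Cyp2c65 was lower, with log2 differences of -3.23 ± 0.45, -2.88 ± 0.44 and -2.38 ± 0.44, Cyp2c66 with -3.65 ± 0.62, -3.45 ± 0.61 and -4.68 ± 0.73, and Cyp2c68 with -2.85 ± 0.33, -2.44 ± 0.33 and -1.84 ± 0.32. The distal value of Cyp2c66 rests on GFP-high libraries with 0 to 0.265 CPM and was -5.80 without the GFP-high library numbered 3. Cyp2j6, an arachidonic acid epoxygenase, had differences of -1.86 ± 0.14, -1.22 ± 0.14 and -1.42 ± 0.14, and Cyp2u1, a fatty acid hydroxylase, of -2.57 ± 0.41, -2.49 ± 0.41 and -1.51 ± 0.39. Cyp1a1, the classical target of the aryl hydrocarbon receptor, reached a group mean of 1 CPM in the proximal part only, with 0.361, 0.4, 0.392 and 0.595 CPM in GFP-high and 4.29, 10.01, 3.6 and 4.55 CPM in GFP-negative libraries. Its difference of -3.68 ± 1.18 was called by edgeR (adjusted p = 0.00876) and not by DESeq2 (adjusted p = 0.0992).

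Cyp2s1, an epithelial P450, was lower in GFP-high cells of every part. It had 47.3, 46.2, 50.4 and 40.6 CPM in middle small intestinal GFP-high libraries and 115, 114, 123 and 114 CPM in GFP-negative ones, which do not overlap. The log2 differences were -1.20 ± 0.17, -1.34 ± 0.17 and -1.57 ± 0.17 in the small intestine and -0.99 ± 0.17 and -0.91 ± 0.17 in the colon (edgeR adjusted p = 1.41e-05 and 6.38e-05). Among enzymes of sterol metabolism, Cyp51 was lower, with log2 differences of -0.90 ± 0.17, -0.67 ± 0.17 and -0.95 ± 0.17 in the small intestine, and Cyp27a1, which oxidises the side chain of cholesterol, with -1.58 ± 0.24, -1.62 ± 0.24 and -0.90 ± 0.23.

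A few genes went the other way. Cyp2e1, the ethanol-inducible P450 that oxidises small solvents and ethanol, had 54.1, 46.5, 42.02 and 33.7 CPM in proximal small intestinal GFP-high libraries, 20.9, 15.5, 14.5 and 10.7 CPM in GFP-intermediate ones and 1.2, 0.51, 1.32 and 1.35 CPM in GFP-negative ones. The 3 fractions form 3 separate steps. The GFP-high minus GFP-negative log2 difference was 5.32 ± 0.67 in the proximal part and 5.87 ± 0.71 in the middle part (edgeR adjusted p = 9.48e-09 and 2.99e-09), and against GFP-intermediate cells, averaged over the 3 parts, it was 1.88 ± 0.34 (edgeR adjusted p = 7.45e-05). In the distal part the GFP-high libraries had only 0.205 to 1.88 CPM, and the difference there (3.71 ± 0.74) became 2.94 without the GFP-high library numbered 3 and 4.59 without the libraries numbered 1. In the colon it was at 0 in all 8 GFP-high libraries, where 3 counts, the limit that a count of 0 allows, correspond to 0.0243 to 0.0589 CPM over the 60 libraries. Paneth markers summed to 6505 to 12171 CPM in proximal and 7778 to 14966 CPM in distal small intestinal GFP-high libraries. Their part in the Cyp2e1 difference was not tested.

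Cyp39a1, which hydroxylates 24-hydroxycholesterol on the way to bile acids, had 49.99, 43.5, 44.2 and 36.3 CPM in distal small intestinal GFP-high libraries and 8.08, 11.5, 15.6 and 10.99 CPM in GFP-negative ones, with no overlap. It was higher, with log2 differences of 1.11 ± 0.21, 1.65 ± 0.21 and 1.91 ± 0.22 from proximal to distal small intestine (edgeR adjusted p = 1.55e-05, 5.46e-09 and 1.23e-10). In the colon it was higher, with log2 differences of 0.76 ± 0.21 and 0.73 ± 0.21, calls that were lost without the libraries numbered 1 (edgeR adjusted p = 0.144 and 0.05995); the proximal call was also lost without the GFP-high library numbered 1 alone (0.0508) or with only the 2 groups in the fit (0.130). Cyp4f15 was higher, with log2 differences of 2.22 ± 0.59, 2.63 ± 0.60 and 2.85 ± 0.63 in the small intestine at low levels (10.1 ± 2.16 CPM in proximal GFP-high cells), the last 2 rising to 3.34 and 3.75 without the GFP-negative library numbered 3 of that part. The orphan enzyme Cyp20a1 was higher, with log2 differences of 0.98 ± 0.16 and 0.63 ± 0.15 in the proximal and middle parts. In the colon Cyp2j9 was higher in GFP-high cells, with 8.39, 8.41, 7.5 and 6.89 CPM against 4.07, 4.14, 2.17 and 3.87 CPM in the proximal part and log2 differences of 1.13 ± 0.26 and 1.502 ± 0.26 (edgeR adjusted p = 0.000804 and 2.17e-05).

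Cyp4f18, a P450 known from neutrophils and other leukocytes, was close to 0 outside GFP-negative cells. It had no count in the 8 colon GFP-high libraries and 0.266, 0.389, 2.04 and 0.734 CPM in proximal colon GFP-negative ones. The small intestinal differences were called in all 3 parts, and the call in the middle part was lost without the GFP-negative library numbered 1 (edgeR adjusted p = 0.0681). In proximal small intestinal GFP-negative cells it had 5.26, 1.02, 0.993 and 1.13 CPM, where summed leukocyte markers ran from 229 to 1911 CPM. The part of leukocyte RNA in its level was not tested.

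**Figure D4:**
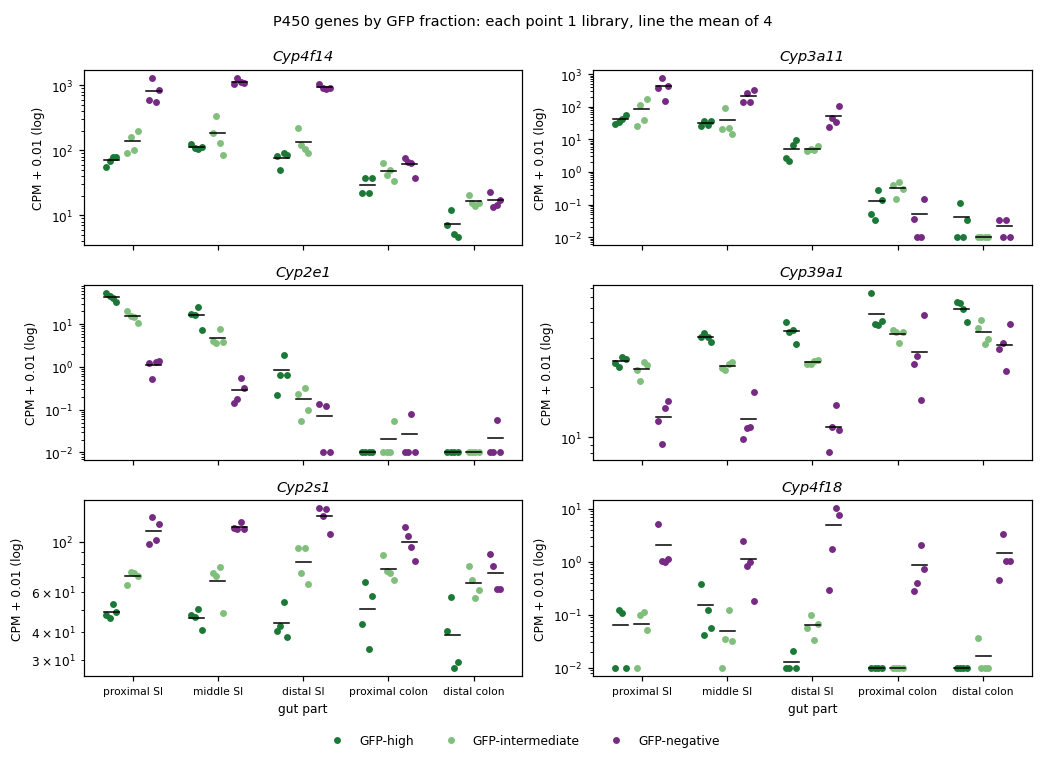
Level of 6 P450 genes in each of the 60 libraries, as CPM plus 0.01 on a log axis, by gut part (SI, small intestine) and GFP fraction, with the mean of 4 libraries as a line. Cyp4f14 and Cyp3a11 are highest in GFP-negative small intestine, Cyp2e1 steps down from GFP-high to GFP-negative and from proximal to distal, Cyp39a1 is highest in GFP-high cells, and Cyp4f18 has its highest libraries in GFP-negative cells.

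The difference between the organs was itself tested, as the GFP-high minus GFP-negative log2 difference in the colon less that in the small intestine. It was positive for 26 of the 66 genes (all genes, 14.5%) and negative for 5 (17.7%), or 3 without the proximal colon GFP-negative library numbered 3. Cyp2d26 had a term of 3.04 ± 0.30 (edgeR adjusted p = 7.85e-12). In proximal colon its GFP-high and GFP-negative means were 19.97 and 32.4 CPM, against 33.8 and 416 CPM in proximal small intestine. The terms were 2.37 ± 0.28 for Cyp4f14, 2.27 ± 0.23 for Cyp4v3, 2.14 ± 0.37 for Cyp3a13, 1.91 ± 0.19 for Cyp4f40, 1.84 ± 0.16 for Cyp4f16 and 1.58 ± 0.13 for Cyp2j6. Cyp2j6 had 69.2, 74.6, 68.6 and 72.7 CPM in GFP-high and 66.6, 81.7, 59.1 and 71.8 CPM in GFP-negative proximal colon. The term was negative for Cyp39a1 (-0.81 ± 0.19) and Cyp20a1 (-0.81 ± 0.14). Between the distal and proximal small intestine no gene's GFP-high minus GFP-negative difference was called different by edgeR (12 at an unadjusted p below 0.05; 1 with its newer form and 2 by DESeq2), against 2.54% and 0.993% of all genes called in the 2 directions, and between the colon parts 2 were called (0.36%). Both of those, Cyp4f15 and Cyp4a32, are at most 1.15 CPM in the colon and lost the call without the libraries numbered 1.

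GFP-high and GFP-intermediate cells were compared as averages over the parts of each organ. Over the small intestinal parts 7 genes were lower in GFP-high cells (all genes, 13.4%) and 6 higher (10.4%), shares near those of all genes, and over the colon parts 6 were lower (7.2%) and 1 higher (4.83%). Without the libraries numbered 1 these counts were 4 and 2 in the small intestine and 0 and 0 in the colon. With the replicate number as a block, 10 genes were lower in the colon.

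Along the small intestine, more P450 genes were lower than higher in the distal part. In GFP-high cells 14 of 66 genes were lower in the distal part (all genes, 5.42%) and 5 higher (6.39%), and in GFP-negative cells 26 were lower (8.9%) and 7 higher (6.67%). Medians over the 66 genes were -0.41 and -0.86, against 0 and -0.03 over all genes. With only the compared groups in the fit, 17 were lower and 2 higher in GFP-negative cells, and without the libraries numbered 1, 4 were higher there and 3 in GFP-high cells.

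Cyp2c66 was lower in distal GFP-high cells, from 3.89, 4.56, 7.23 and 9.74 CPM in the proximal to 0, 0.0126, 0.265 and 0.136 CPM in the distal libraries. Its log2 difference was -5.88 ± 0.75 there (-7.00 without the distal library numbered 3) and -4.86 ± 0.65 in GFP-negative cells (edgeR adjusted p = 9.73e-08). Cyp2c65, whose promoter shares the run of 48 bases with that of Cyp2c66, had 28.6 ± 17.2 CPM in distal GFP-negative cells against 203 ± 79.2 CPM in proximal ones. Cyp2c65 and Cyp2c66 share 20.2% to 23.97% of their 50-base words, so part of their reads may be ambiguous. Cyp2b10 was lower in the distal part, with a log2 difference of -4.50 ± 0.71 among GFP-high and -4.55 ± 0.68 among GFP-negative cells, Cyp3a11 with -2.97 ± 0.56 and -3.03 ± 0.55, and Cyp2d26 with -2.08 ± 0.34 and -2.44 ± 0.34. Without the distal library numbered 4, the second Cyp3a11 value was -3.62. Cyp3a25 was lower, with a log2 difference of -2.18 ± 0.48 and Cyp2j6 with -0.80 ± 0.14 in GFP-negative cells. Cyp2e1 was lower, with a log2 difference of -5.70 ± 0.68 in GFP-high cells (edgeR adjusted p = 3.83e-08), or -6.47 without the distal library numbered 3, and Cyp4f15 with -3.07 ± 0.61.

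Cyp4f40 ran against this order, from 111, 148, 163 and 171 CPM in proximal GFP-negative libraries to 275, 231, 263 and 264 CPM in distal ones, which do not overlap. It was higher in the distal part, with a log2 difference of 1.03 ± 0.21 among GFP-high and 0.80 ± 0.20 among GFP-negative cells (edgeR adjusted p = 0.000263 and 0.00341). Cyp2u1 was higher, with a log2 difference of 1.64 ± 0.40 in GFP-high cells, and Cyp51 with 0.62 ± 0.17 in GFP-negative cells, a call lost without the libraries numbered 1 (edgeR adjusted p = 0.0828). The summed enterocyte markers were also lower in distal (12444 to 15362 CPM) than in proximal GFP-negative libraries (17612 to 33453 CPM). Their part in the P450 differences was not tested.

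In the colon, distal cells had 10 P450 genes lower (all genes, 4.05%) and 1 higher (3.74%) than proximal cells among GFP-high libraries, and 14 lower (7.17%) and 6 higher (6.39%) among GFP-negative libraries. Cyp2c55 had 1598, 1481, 1574 and 1578 CPM in proximal GFP-negative libraries and 113, 92.6, 87.6 and 159 CPM in distal ones. The groups are far apart, and the log2 difference was -3.79 ± 1.00 (edgeR adjusted p = 0.00596). In GFP-high cells it was -3.51 ± 0.99, a call lost without the libraries numbered 1 (edgeR adjusted p = 0.0709) or without any 1 of the distal GFP-high libraries numbered 1, 3 and 4 (0.0504 to 0.0683). Within the proximal colon the GFP-high libraries (329, 842, 365 and 616 CPM) all lay below the GFP-negative ones, yet the difference of -1.53 ± 0.91 was not called (edgeR adjusted p = 0.23) in the fit of all groups, and was called with only these 2 groups in the fit (0.00255).

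Cyp4b1, which oxidises fatty acids and activates some protoxins, had 28.7, 13.9, 26.5 and 11.1 CPM in proximal GFP-negative and 0.26, 0.262, 0.322 and 0.564 CPM in distal GFP-negative libraries. The log2 differences were -4.94 ± 0.55 among GFP-high and -5.83 ± 0.55 among GFP-negative cells (edgeR adjusted p = 1.42e-09 and 1.21e-11), the first becoming -5.64 without the distal GFP-high library numbered 2. Cyp2c65 was lower, with log2 differences of -3.82 ± 0.46 and -3.47 ± 0.45 in the same 2 fractions, the first becoming -4.44 without that library. Cyp4f14 was lower, with log2 differences of -2.03 ± 0.32 and -1.84 ± 0.31. In the opposite direction, Cyp2c68 was higher in distal GFP-negative cells, with a log2 difference of 1.68 ± 0.32 (edgeR adjusted p = 0.000107), with 51.05, 43.7, 35.8 and 86.7 CPM against 15.8, 14.9, 12.1 and 25.04 CPM proximally. Among GFP-high cells its difference was 0.64 ± 0.31 and was not called (edgeR adjusted p = 0.256). Cyp2c65 and Cyp2c68 stood in opposite orders along the colon among GFP-negative cells. Cyp2c68 shares 43.3% of its 50-base words with other genes, mostly Cyp2c40, so its counts are uncertain. Cyp2f2, known from airway club cells, was higher in the distal colon, with log2 differences of 2.97 ± 0.67 and 2.73 ± 0.66, at 25.6 ± 7.22 CPM in GFP-negative cells; the first fell to 2.15 without the distal GFP-high library numbered 2.

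**Figure D5:**
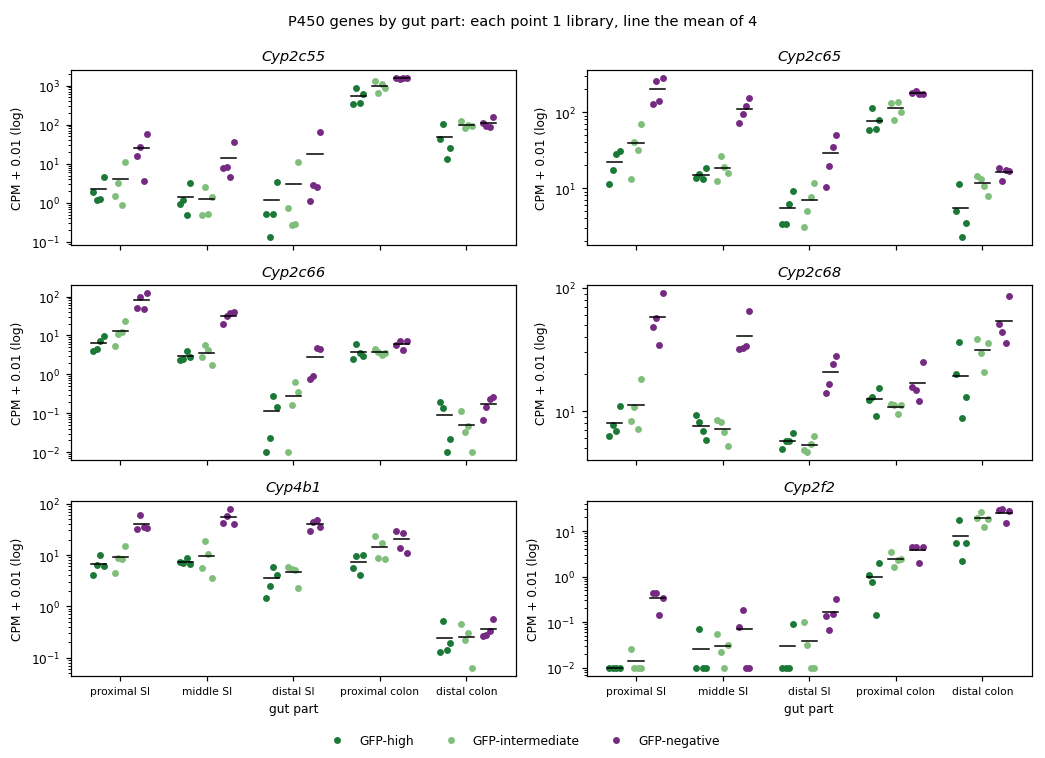
Level of 6 P450 genes in each of the 60 libraries, as CPM plus 0.01 on a log axis, by gut part (SI, small intestine) and GFP fraction, with the mean of 4 libraries as a line. Cyp2c55 is highest in the proximal colon, Cyp2c66 falls along the small intestine, Cyp4b1 drops between proximal and distal colon, and Cyp2f2 and distal Cyp2c68 rise there.

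Between the organs, 26 P450 genes were higher in colon than in small intestine among GFP-high cells (all genes, 20.9%) and 17 lower (21.3%). Among GFP-negative cells 17 were higher (28.1%) and 31 lower (22.4%). The small intestinal libraries numbered 1 held no Ddx3y, a Y-linked transcript, whereas every colon library held it. The part of sex in these differences was not tested. Libraries of different parts with equal numbers entered the fit as independent ones, so its p-values do not allow for their correlation. Cyp2c55 was higher in colon, with a log2 difference of 6.69 ± 0.69 in GFP-high cells and 4.48 ± 0.62 in GFP-negative cells (edgeR adjusted p = 6.65e-12 and 1.55e-08). The second value was 5.26 with the replicate number as a block, and 5.50 without the distal small intestinal GFP-negative library numbered 4. That library had 65.4 CPM where the other 3 of its group had 1.09 to 2.83 CPM. Cyp2w1, known from developing gut and colon tumours, was higher in colon, with a log2 difference of 3.53 ± 0.25 among GFP-negative cells, with 8.58 ± 2.08 CPM in the proximal part. Cyp2d34 had group means of at most 0.258 CPM in the small intestine and 69.8, 67.004, 40.3 and 44.96 CPM in distal colon GFP-negative libraries, and it shares 13.7% of its 50-base words with other genes. Lower in colon among GFP-negative cells were Cyp4f14 (-4.90 ± 0.25), Cyp4v3 (-4.85 ± 0.20), Cyp3a13 (-3.73 ± 0.30) and Cyp2j6 (-1.36 ± 0.09). Among GFP-high cells Cyp4f14 and Cyp4v3 were lower, with log2 differences of -2.53 ± 0.22 and -2.58 ± 0.18, while Cyp51 and Cyp39a1 were higher, with log2 differences of 0.92 ± 0.11 and 0.64 ± 0.13 (edgeR adjusted p = 1.83e-10 and 7.81e-05).

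The partners of the P450 enzymes were followed as lists. Of 7 electron donors (among them Por, cytochrome b5 and the mitochondrial ferredoxin system), 5, 6 and 6 had lower levels in the GFP-high fraction along the small intestine from proximal to distal, and 2 and 1 in the proximal and distal colon; none was higher. Over all tested genes the shares called lower in these 5 parts were 24.6%, 25.6%, 26.2%, 14% and 13.9%, and the distal colon counts of the donors and of the conjugating enzymes below are near that share. In the proximal small intestine the 4 with the smallest adjusted p were Cyb5b at -1.91 ± 0.13, Cyb5a at -1.53 ± 0.11, Cyb5r3 at -2.30 ± 0.17 and Por at -1.84 ± 0.14 (edgeR adjusted p = 1.55e-17, 1.46e-16, 3.38e-16 and 1.09e-15). Of 17 conjugating and hydrolysing enzymes, 15, 14 and 13 were lower in the 3 small intestinal parts and 5 and 3 in the colon parts (0, 2, 2, 0 and 2 higher), and of 5 efflux transporters 5, 4 and 5, then 4 and 1. The list medians in proximal small intestine were -1.53, -1.78 and -2.17 for these 3 lists, against 0 over all genes. Of 17 receptors and regulators of P450 genes, 9 were lower and 2 higher there. The 4 with the smallest adjusted p were Hnf4g at -1.996 ± 0.211, Nr1h4 (FXR, the bile acid receptor) at -1.57 ± 0.18, Nr1h3 (LXR alpha, a sterol receptor) at -1.41 ± 0.16 and Nr1i2 (PXR, a receptor for foreign compounds) at -0.87 ± 0.12 (edgeR adjusted p = 2.35e-11, 2.06e-10, 2.57e-10 and 5.26e-08).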

How the data were processed

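PolyA RNA of GFP-sorted cells was sequenced in 60 libraries, 4 for each of 15 groups. Per the labels' protocols, at least 30000 cells (colon) or 50000 cells (small intestine) were sorted per fraction. The deposited values used are whole-number counts per gene, unnormalised. The tools named, per the submitters' processing notes, are STAR, featureCounts, Subread and edgeR, with the build mm10; versions, strandedness and annotation release are not given in the sources used here. Without known strandedness, reads of overlapping antisense genes cannot be told apart. The authors' deposited gene length and batch number were also used; the other deposited columns of per-gene values were not.

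Rows were fitted with edgeR 4.0.16 (R 4.3.3): genes were kept by filterByExpr over the 15 groups (23360 genes, 66 of them P450), normalised by TMM, and tested with glmQLFit and glmQLFTest in 1 model of all 60 libraries. Benjamini-Hochberg adjustment ran over all tested genes, and a gene was called below an adjusted p of 0.05. CPM are TMM-normalised, errors of fitted differences are standard errors and errors of levels are SD over 4 libraries. On simulated counts for 23360 genes in the distal against proximal colon GFP-high comparison, 58% of 2-fold and 81% of 4-fold changes were called, and 8 unchanged genes. Each simulated gene had 1 mean over all groups and the trended dispersion, and the test was given that same dispersion. Only genes above a minimum expected count were changed. These shares therefore do not cover genes with low counts or with a spread away from the trend. Alternatives were DESeq2 (1.42.0) size factors or its Wald test, no count filter, edgeR's newer form, a replicate block, only the groups compared, and each library left out in turn (with the trended dispersion of the full fit kept). Leaving out all libraries numbered 1 was chosen after seeing the data.

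The deposited batch number equals the replicate number in 60 of 60 libraries, so equal numbers were read as pairing libraries, from the deposited table. Deviations from group means correlated at 0.185 on average over 420 pairs with equal numbers and at -0.0583 over 1260 others. For GFP-high and GFP-negative cells the mean ran from -0.160 in the proximal colon to 0.215 in the proximal small intestine. For distal and proximal parts of an organ, within a fraction, it ran from 0.355 to 0.493. The main fit held no term for the number, which entered only as the replicate block. Ddx3y, a Y-linked gene, was at 0 in all 9 small intestinal libraries numbered 1 and at 40.1 to 46.4 CPM in the 6 colon libraries numbered 1, so that number is not a single animal. In the other small intestinal libraries it was at 41.3 to 69.0 CPM. Each small intestinal group thus mixes libraries with and without this transcript. In the colon libraries numbered 2 to 4 it was at 48.7 to 68.9 CPM, so every colon library held this transcript. Leaving out number 1 therefore removed libraries without it from small intestinal groups and from no colon group. The part of sex in the small intestinal calls lost then, and in the comparisons and terms between the organs, was not tested.

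Named genes were those with a group mean of 20 CPM or more, in each comparison and direction the 3 called members furthest from 0 whose higher group had at least 5 CPM, and fixed role groups; values are given for some of them and the rest are counted. Cyp4f18 and Cyp2j9 are named through the second part, and Cyp4a32 was chosen after its values were seen. The members and lists were chosen with earlier results of these data known. Promoters are RefSeq's (GRCm38.p6; 77 of 100 P450 genes matched by symbol). Shared sequence was counted as words of 50 bases in the longest GENCODE vM21 coding transcript of each gene, and 23 of the 67 detected genes shared 10% or more with another gene.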

Additional observations from a re-analysis of the deposited data

Results flagged for a closer look

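Among 291 sets of 4 libraries in which a named P450 gene averaged at least 5 CPM, 16 (5.5%) held 1 library far from the other 3, where chance flags about 1 in 20. In 7 of the 16 that library was numbered 4. In the small intestine the highest library stood apart for Cyp1a1 (10.01 CPM) and Cyp4b1 (59.9 CPM) in proximal GFP-negative cells. It also did for Cyp2c55 (36.8 CPM), Cyp2c68 (65.0 CPM) and Cyp2s1 (123 CPM) in middle GFP-negative cells, for Cyp3a11 (94.7 CPM) and Cyp3a25 (57.8 CPM) in middle GFP-intermediate cells, and for Cyp2c55 (65.4 CPM) in distal GFP-negative cells. The lowest library stood apart for Cyp4v3 in middle GFP-high cells (92.3 CPM), Cyp51 in middle GFP-negative cells (100.7 CPM), Cyp3a13 in distal GFP-negative cells (250.8 CPM) and Cyp4f14 in distal GFP-high cells (49.6 CPM). In the proximal colon these were the highest library of Cyp39a1 in GFP-high cells (74.5 CPM) and the lowest of Cyp4f16 in GFP-negative cells (29.8 CPM) and of Cyp4v3 in GFP-high cells (8.11 CPM). In the distal colon it was the highest library of Cyp2j6 in GFP-negative cells (70.2 CPM).

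The GFP-high minus GFP-negative difference was itself called different between colon and small intestine by edgeR for 26 genes upward and 5 downward. The terms of 9 of these are printed. Other genes described above, such as Cyp2s1, Cyp27a1 and Cyp2c65, were also called but their terms are not printed. The colon log2 difference less the small intestinal one was 3.04 for Cyp2d26, 2.37 for Cyp4f14, 2.27 for Cyp4v3, 2.14 for Cyp3a13, 1.91 for Cyp4f40, 1.84 for Cyp4f16 and 1.58 for Cyp2j6. For these genes GFP-high cells stood further below GFP-negative cells in the small intestine than in the colon. The term was -0.81 for Cyp20a1 and -0.81 for Cyp39a1.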

How the results depend on the processing

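Of 32 counts of P450 genes called, DESeq2 size factors moved none by more than 1.5 times, and no printed value changed sign under any setting run. Without the libraries numbered 1, GFP-high against GFP-negative gave 5 higher in the distal small intestine (8 with all), 2 higher and 4 lower in the proximal colon (4 and 13) and 6 lower in the distal colon (10); GFP-high against GFP-intermediate gave 2 higher and 4 lower in the small intestine (6 and 7) and 0 and 0 in the colon (1 and 6). Distal against proximal small intestine gave 3 higher among GFP-high (5) and 4 among GFP-negative cells (7), and the terms for fraction by part gave 1 lower in the small intestine (0) and 0 higher in the colon (2). With only the groups compared, the same order gave 3 higher in distal small intestine, 1 higher in proximal colon, 2 higher and 11 lower against GFP-intermediate in colon, 2 higher and 17 lower for GFP-negative distal against proximal small intestine, and 0 for the colon term. Without the count filter, GFP-high against GFP-intermediate in colon gave 0 higher and 3 lower, and distal against proximal GFP-high small intestine 3 higher. The newer edgeR form gave 10 lower against GFP-intermediate in colon, 3 higher for distal against proximal GFP-high colon (1), 1 higher for the small intestinal term, and 0 higher and 1 lower for the colon term. DESeq2's Wald test gave 2 higher and 11 lower against GFP-intermediate in colon and 2 higher for the small intestinal term. With the replicate block, 10 were lower against GFP-intermediate in colon (6), and it changed no other call of a named gene and moved no other count by over 1.5 times. The cause of these changes was not tested.

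Leaving out single libraries gave 4 to 8 higher for GFP-high against GFP-negative in distal small intestine, 2 to 4 higher and 4 to 16 lower in proximal colon, and 3 to 5 higher and 6 to 15 lower in distal colon. Against GFP-intermediate in colon the ranges were 0 to 1 higher and 2 to 12 lower. Distal against proximal gave 2 to 5 higher in GFP-high small intestine, 1 to 2 in GFP-high colon and 3 to 5 in GFP-negative colon. The organ term gave 3 to 6 lower. The part terms gave 0 to 1 in each direction in the small intestine and 0 to 2 higher in the colon. Of 1516 such values for named genes, 9 lost their call.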
